A study of Mus musculus with 6 samples.

Results

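The genes described here encode the machinery that brings newly made secretory and membrane proteins into the endoplasmic reticulum (ER) and attaches the first sugars to them. A list of 41 genes was matched to the array's rows (probe sets), and a gene was taken where a row was annotated with its symbol alone, with the brightest such row standing for the gene. This gave 40 genes of the 19938 genes that have a row of their own. Sec61g, the small gamma subunit of the Sec61 channel, has 4 rows that it shares with other symbols, so it has no value here. The 40 genes fall into 6 roles: 7 genes of the signal recognition particle (SRP) and its receptor, 7 of the translocation channel, 4 of the translocon-associated protein complex (TRAP), 5 of signal peptidase, 9 of oligosaccharyltransferase (OST) and 8 that build the lipid-linked sugar donor.

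The RNA came from A3-1, a mouse embryonic stem (ES) cell line, and was read on 6 Affymetrix arrays, 2 for each of 3 groups. All cells were kept with serum and LIF, the cytokine that holds mouse ES cells undifferentiated. One group was left untreated, one was given small interfering RNA (siRNA) aimed at green fluorescent protein as a control (siGFP), and one an siRNA aimed at Lin28a (siLin28a), for 48 hours in both cases. A single siRNA sequence was used in each siRNA group. LIN28A is an RNA-binding protein, and setting siLin28a against siGFP addresses which RNA levels differ with a lowered Lin28a among cells that all received siRNA. Whether the 2 arrays of each group stem from different cultures is not in the labels, so the p-values below cover array-to-array spread only, which may be technical.

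A protein bound for secretion carries a signal peptide that SRP recognises as it leaves the ribosome, and SRP halts the ribosome until it docks at the SRP receptor on the ER membrane. The chain then passes through or into the membrane at the Sec61 channel, helped by TRAP, TRAM and the Sec62 and Sec63 proteins, while signal peptidase cuts off the signal peptide. OST moves a preassembled glycan from the lipid dolichol to asparagines of the entering chain, and the Alg enzymes build that glycan sugar by sugar. In mouse ES cells LIN28A is known to bind messenger RNAs translated at the ER and to reduce their translation, and the array measures RNA level, not translation. In bulk RNA, fewer cells of a type and less RNA per cell cannot be told apart.

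The siRNA against Lin28a is shown because every siLin28a value rests on this reagent. Its strands of 19 bases each are given without their overhangs, from 5′ to 3′, with bases 2 to 8 in capitals, and they pair over their full length with 0 mismatches.
siLin28a first strand: gCAGAAGCgaagauccaaa
siLin28a second strand: uUUGGAUCuucgcuucugc

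Promoter windows are shown for 3 genes that stand among those with the largest differences in the comparisons below: Alg12, Magt1 and Srp14. Each is the 300 bases from 250 before to 50 after the transcription start in RefSeq, build GRCm38.p6, written 5′ to 3′ on the gene's strand, which is the minus strand in all 3. Alg12 lies at chr15:88819269-88819568, and its capitals mark the one match to the ER stress response element (ERSE), searched as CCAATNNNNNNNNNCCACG, at positions −220 to −202 from the start. Magt1 lies at chrX:106011753-106012052, and its capitals mark 4 matches to CCAAT, one of them on the opposite strand. Srp14 lies at chr2:118479647-118479946, and its capitals mark GACGTG, a core sequence known to be bound by the ER stress factors XBP1 and ATF6, at positions −18 to −13.
Alg12: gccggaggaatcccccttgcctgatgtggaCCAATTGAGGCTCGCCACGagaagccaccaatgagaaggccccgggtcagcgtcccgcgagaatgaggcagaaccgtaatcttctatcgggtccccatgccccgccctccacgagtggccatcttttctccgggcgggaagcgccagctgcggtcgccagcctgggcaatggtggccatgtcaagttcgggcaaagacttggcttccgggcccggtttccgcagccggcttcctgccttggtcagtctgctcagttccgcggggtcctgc
Magt1: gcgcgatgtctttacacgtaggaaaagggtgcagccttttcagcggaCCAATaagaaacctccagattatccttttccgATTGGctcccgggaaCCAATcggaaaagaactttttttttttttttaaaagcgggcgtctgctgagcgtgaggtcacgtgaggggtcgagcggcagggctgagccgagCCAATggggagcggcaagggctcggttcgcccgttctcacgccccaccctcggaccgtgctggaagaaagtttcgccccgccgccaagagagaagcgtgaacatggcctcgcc
Srp14: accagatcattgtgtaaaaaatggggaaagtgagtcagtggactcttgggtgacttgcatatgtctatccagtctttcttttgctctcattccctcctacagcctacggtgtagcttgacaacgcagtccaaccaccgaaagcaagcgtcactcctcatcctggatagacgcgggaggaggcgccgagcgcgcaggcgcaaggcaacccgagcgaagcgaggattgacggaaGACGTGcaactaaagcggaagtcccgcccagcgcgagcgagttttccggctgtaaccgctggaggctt

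Across the list, 30 of the 40 genes had a window in the RefSeq table. Their windows were GC-rich, with a median GC content of 62.3% against 52.7% over all 32851 windows and a median of 23 CpG dinucleotides against 7. On both strands, ERSE was found in 1 of the 30 genes (3.33%, against 0.137% of the 27025 genes with a window), which was Alg12. GACGTG was found in 5 of the 30 (16.7%, against 7.15%): Dad1, Sec63, Srp14, Srpr and Ssr1. CCAAT, which is also the first part of ERSE, was found in 15 (50%, against 41.1%), and TATAAA in 1, Alg9 (3.33%, against 15.7%). A match is a string of letters and not a measured binding site. In 10 of the 30 genes the window overlaps that of a gene on the opposite strand, such as Creld2, an ER-resident protein gene whose window shares 173 bases with that of Alg12.

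The arrays were alike in their median, 5.2 to 5.3 on the log2 scale in each, and Pearson's r between arrays across rows was 0.991 to 0.995. The upper quartile was 7.2 on the untreated and siGFP arrays and 7.0 and 7.1 on the siLin28a arrays. The deposited distributions were thus not equal at higher levels. Lin28a itself read 9.1 and 9.4 in untreated cells, 9.1 and 9.4 with siGFP, and 7.4 and 7.4 with siLin28a. Its log2 difference from siGFP was −1.85 (SE 0.16, n = 2 per group), 3.6-fold lower, with an adjusted p of 0.512 by limma over all 23410 named rows. All 8 ES cell markers were bright (9.3 to 12.7 over the arrays), while 7 feeder fibroblast markers read 2.1 to 7.1 and 8 secretory endoderm markers 3.2 to 5.7. The mean of the ES cell markers was 11.2 and 11.3 on the untreated arrays, 11.1 and 11.3 with siGFP and 10.8 and 10.9 with siLin28a, and their part in the differences below was not tested.

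None of the 40 genes had a mean over the 6 arrays below 6 on the log2 scale, and 9 had a mean of at least 10. The dimmest lay within the range of the feeder fibroblast markers, which reached 7.1. That top came from Thy1, and the other feeder markers read 6.2 or less. The dimmest were Tram2 (6.17), Alg12 (6.4), Sec11c (6.52), Sec62 (6.63), Alg6 (6.77), Alg5 (7) and Alg8 (7.03). They were brighter than 57.95% (Tram2) to 69.96% (Alg8) of all genes. In 28 of the 40 genes all 6 arrays lay within 0.5 of each other. The members with the least spread include Stt3a, a catalytic subunit of OST, at 10.8 and 10.8 in untreated cells, 10.9 and 10.8 with siGFP, and 10.8 and 10.8 with siLin28a. Sec61a1, the pore-forming alpha subunit of the channel, read 10.4 and 10.5, then 10.4 and 10.6, then 10.4 and 10.5 in the same order. The groups overlapped in both genes.

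**Figure D1:**
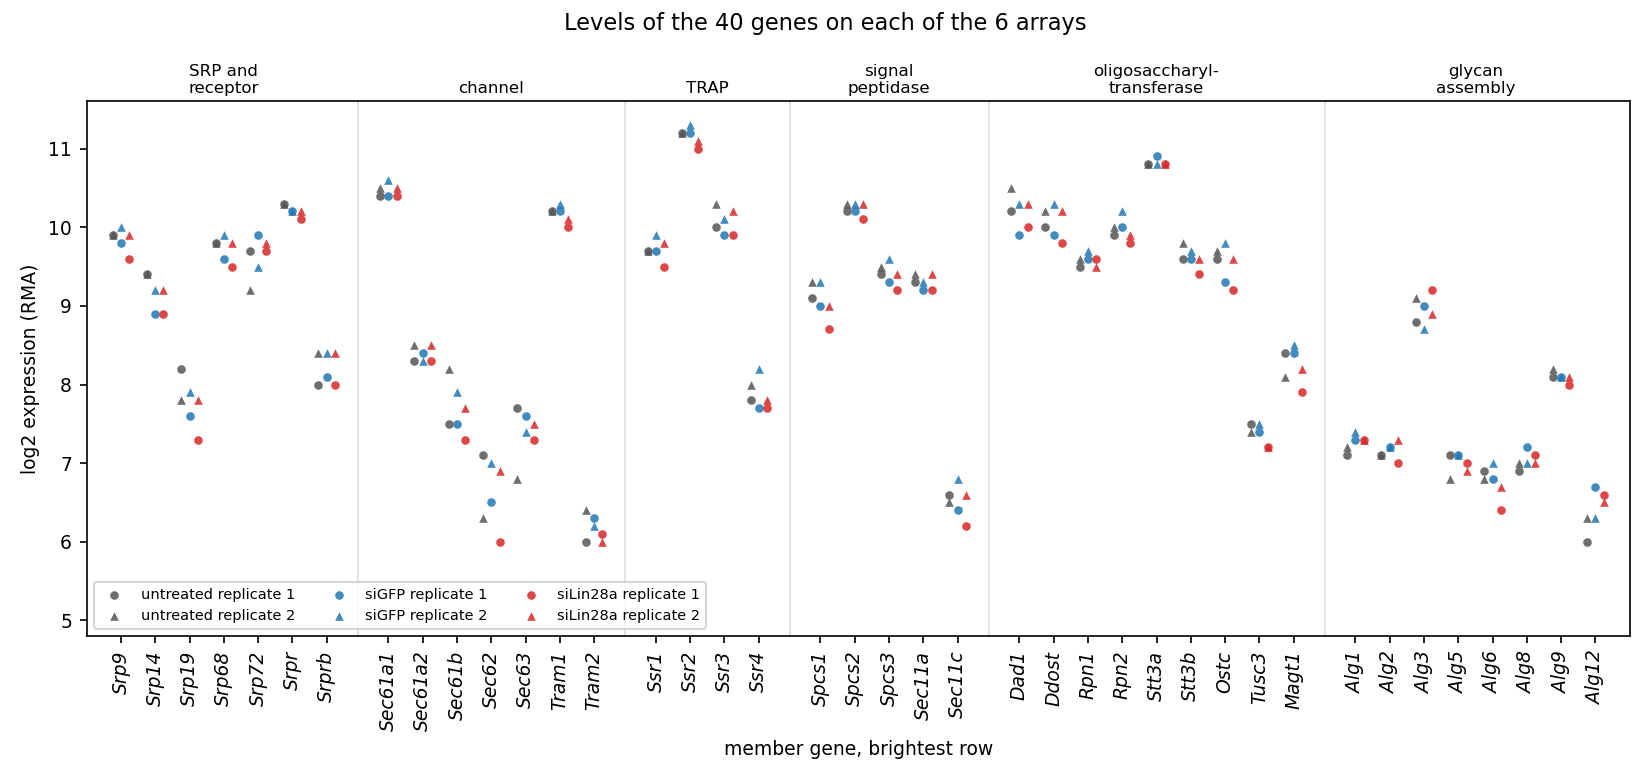
Log2 expression of the 40 genes on the 6 arrays, grouped by role, with 1 point per array coloured by group. Most genes' 6 points lie within 0.5 of each other, and Sec62 has the widest spread, 1.1 from its lowest to its highest array.

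With siLin28a, 32 of the 40 genes had a lower mean than with siGFP, 1 was equal and 7 were higher. Over all 19938 genes, 49.2% were lower and 38.9% higher. The median log2 difference over the 40 genes was −0.10, with a range of −0.40 to 0.20, against a median of 0 over all genes. No gene of the list passed an adjusted p of 0.05 by limma, and neither did any of the 23410 rows (0%). The smallest adjusted p among the 40 was 0.953. At an unadjusted p below 0.05 limma gave 1 of the 40, Magt1, against 4.05% of all rows (by gene, 2.38% of all genes on the lower side and 1.78% on the higher). The standard error of a member's difference was 0.11 to 0.39 with a median of 0.15.

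Both siLin28a arrays lay below both siGFP arrays in 8 of the 40 genes (20%), against 12.0% of all genes. These were Tram1, Tram2, Ssr2, Rpn2, Tusc3, Magt1, Alg5 and Alg6. The opposite, with both siLin28a arrays above both siGFP arrays, was found in 0 of the 40, against 9.06% of all genes. In 4 genes (Tram1, Ssr2, Tusc3 and Alg6) both siLin28a arrays lay below all 4 other arrays, which held for 5.06% of all genes. All 40 genes have a mean of at least 6, and the shares over all genes depend on level. With siLin28a below siGFP the arrays did not overlap in 16.8% of all genes with a mean of 6 to 8, 16.6% at 8 to 10 and 15.4% at 10 and over. With siLin28a above, they did not overlap in 283 of 5336, 73 of 2935 and 7 of 618 genes at these levels.

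The share of lower means depended on level as well. Among all genes with a mean of 6 to 8, 59.0% were lower with siLin28a than with siGFP, at a mean of 8 to 10 it was 68.8%, and at 10 and over 74.3%, while below 6 it was 37.8%. Of the listed genes, 13 of the 14 with a mean of 6 to 8 were lower (median −0.20, against −0.05 over all genes at that level). At 8 to 10, 12 of 17 were lower, with a median of −0.10 in the list and over all genes of that level. At 10 and over, 7 of 9 were lower, with a median of −0.05 against −0.10. The list's median was thus below that of all genes at 6 to 8, equal to it at 8 to 10 and above it at 10 and over.

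**Figure D2:**
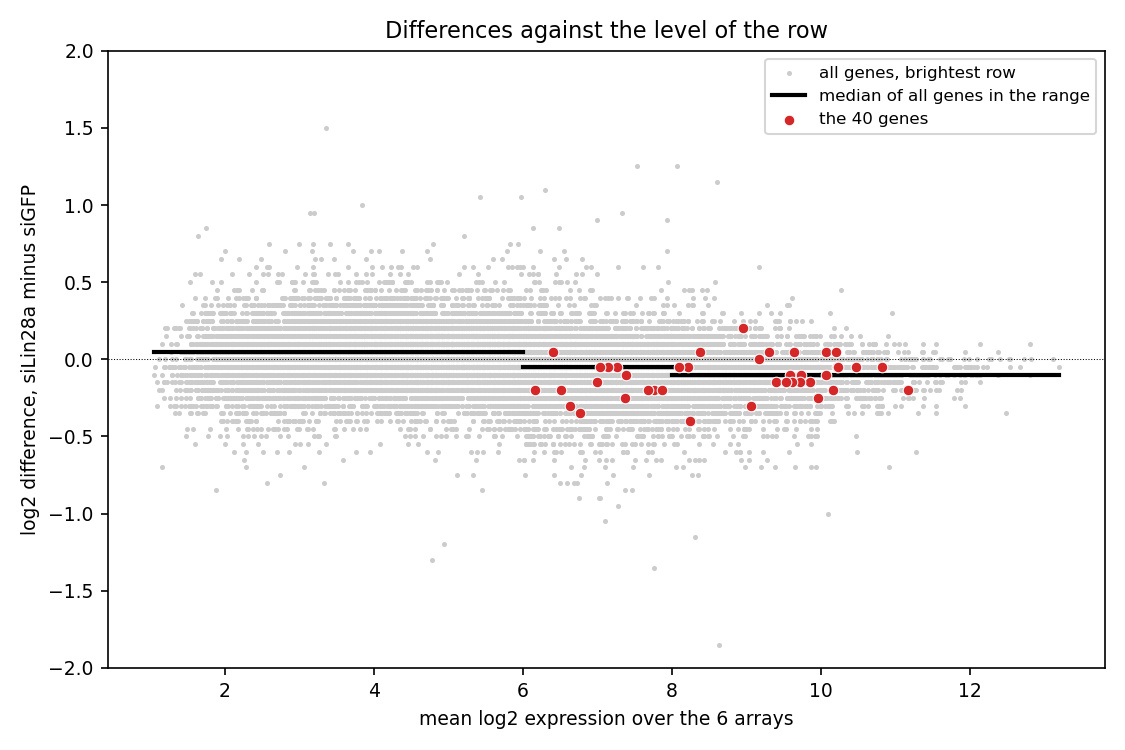
Log2 difference between siLin28a and siGFP against mean level, for all 19938 genes and for the 40 listed genes. The median over all genes goes from 0.05 below a mean of 6 to −0.10 at 8 and over, and the listed genes lie from −0.40 to 0.20.

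The scaling of the arrays also entered. After a further quantile normalization of the deposited values, 23 of the 40 genes were lower and 16 higher (median −0.03), and after cyclic loess 23 were lower and 17 higher (median −0.02). After shifting each array to the same median, 33 were lower and 1 higher (median −0.15), with all genes at a median of −0.05. The split also moved when 1 array was left out. Without siLin28a replicate 1 the 40 genes split into 16 lower and 15 higher with a median of 0, and without siLin28a replicate 2 into 36 lower and 2 higher with a median of −0.225. Without siGFP replicate 1 the median was −0.175, with 32 lower and 5 higher, and without siGFP replicate 2 it was −0.05, with 23 lower and 11 higher.

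Within siLin28a and within siGFP, the 2 arrays differed from each other by as much as the groups did. The mean deviation of the 40 genes from their own 6-array mean was −0.16 on siLin28a replicate 1 and 0.03 on siLin28a replicate 2, and −0.02 and 0.11 on siGFP replicates 1 and 2. The untreated arrays were closer, at 0.01 and 0.04. Replicate 2 was above replicate 1 in 31 of the 40 genes with siLin28a (77.5%), against 49.7% of all genes and 78.7% of those with a mean of 8 to 10. With siGFP it was above in 28 (70%), against 50.2% and 58.8%, and in untreated cells in 22 (55%), against 53.8% and 51.1%. The low values on siLin28a replicate 1 were shared by SRP (mean deviation −0.21), the channel (−0.21), TRAP (−0.18), signal peptidase (−0.22) and OST (−0.19), whereas the glycan-building enzymes stood at −0.01. The channel's median deviation on that array was only −0.08, against −0.17 to −0.23 for SRP, TRAP, signal peptidase and OST. Apart from Alg3 (mean 8.95) and Alg9 (8.1), the glycan-building enzymes had means below 8. Whether the contrast goes with role or with level was not tested.

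**Figure D3:**
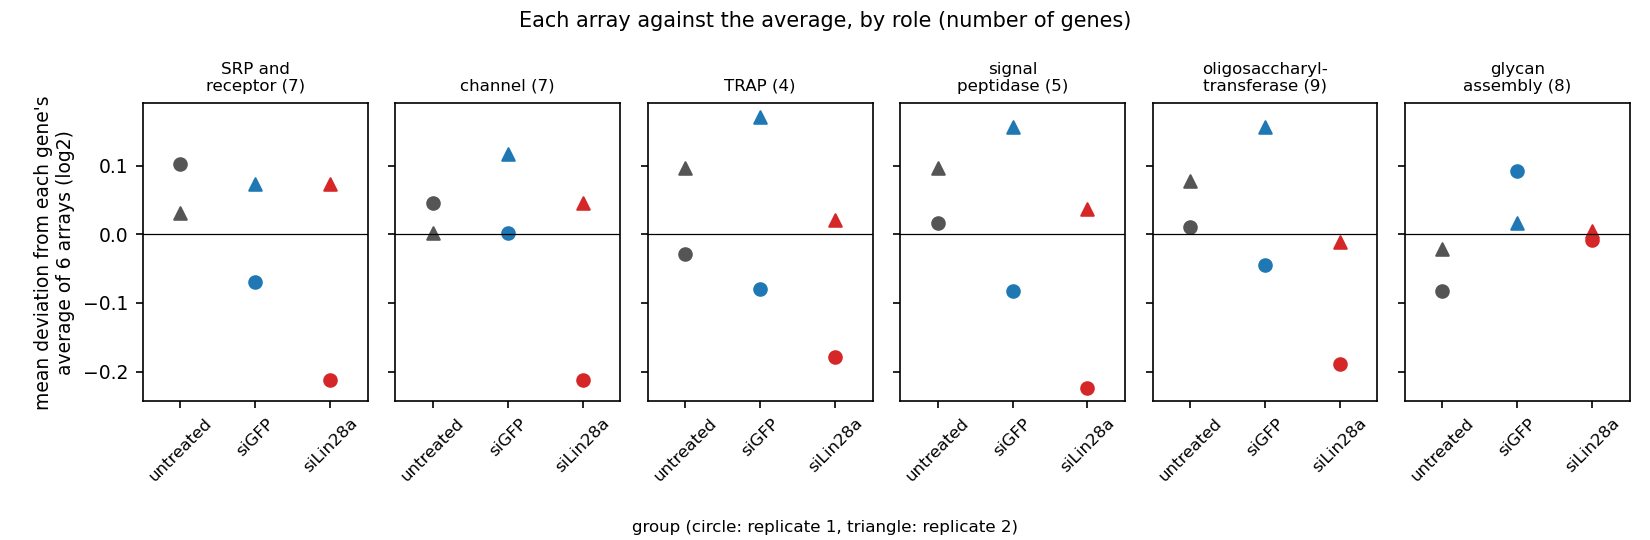
Mean deviation of each role's genes from their 6-array mean, on a log2 scale, for each of the 6 arrays. siLin28a replicate 1 lies lowest for 5 of the 6 roles, and the glycan-building enzymes are near 0 on both siLin28a arrays.

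The comparison of siGFP with untreated cells asks what accompanies the control siRNA. Here 14 of the 40 genes were lower with siGFP, 5 equal and 21 higher, with a median of 0.05 and a range of −0.35 to 0.35. Over all genes 43.3% were lower and 44.4% higher. No row passed an adjusted p of 0.05 by limma (0% of 23410), the smallest adjusted p among the 40 was 0.961, and 0 of the 40 had an unadjusted p below 0.05, against 3.52% of all rows (1.35% of all genes lower, 2.23% higher). The arrays did not overlap in 2 genes that were lower, Srp14 and Srpr (8.71% of all genes), and in 2 that were higher, Alg1 and Alg2 (9.45%). The split was 13 lower and 26 higher after quantile normalization, 9 and 26 after shifting to the same median, and 17 and 23 after cyclic loess. The median turned to −0.025 without untreated replicate 1 and to −0.05 without siGFP replicate 2, and it was 0.05 without untreated replicate 2 and 0.10 without siGFP replicate 1.

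Against untreated cells, siLin28a gave 27 lower, 6 equal and 7 higher of the 40 genes, with a median of −0.125 and a range of −0.45 to 0.40. Over all genes 46.6% were lower and 42.3% higher, but 53.3% were lower among genes with a mean of 6 to 8, 64.6% at 8 to 10 and 66.3% at 10 and over. In the list 8 of 14, 12 of 17 and 7 of 9 were lower at these levels. Again no row passed an adjusted p of 0.05 by limma (0%), the smallest adjusted p among the 40 was 0.776, and 0 of the 40 had an unadjusted p below 0.05 against 6.44% of all rows (3.59% of all genes lower, 2.82% higher). The arrays did not overlap in 7 genes that were lower (17.5%): Srp14, Srpr, Tram1, Ssr2, Spcs1, Tusc3 and Alg6. This held for 12.7% of all genes, and for 17.1%, 19.3% and 22% of all genes at the 3 levels. They did not overlap in 2 that were higher, Alg1 and Alg12 (11.4%). After quantile normalization 21 were lower and 19 higher (median −0.025), and after cyclic loess 24 and 16 (median −0.04). The median was −0.05 without siLin28a replicate 1 or without untreated replicate 2, −0.20 without siLin28a replicate 2 and −0.15 without untreated replicate 1. The 3 comparisons share arrays pairwise and are not independent of each other, and 23 of the 40 genes were lower with siLin28a than in each of the other groups.

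**Figure D4:**
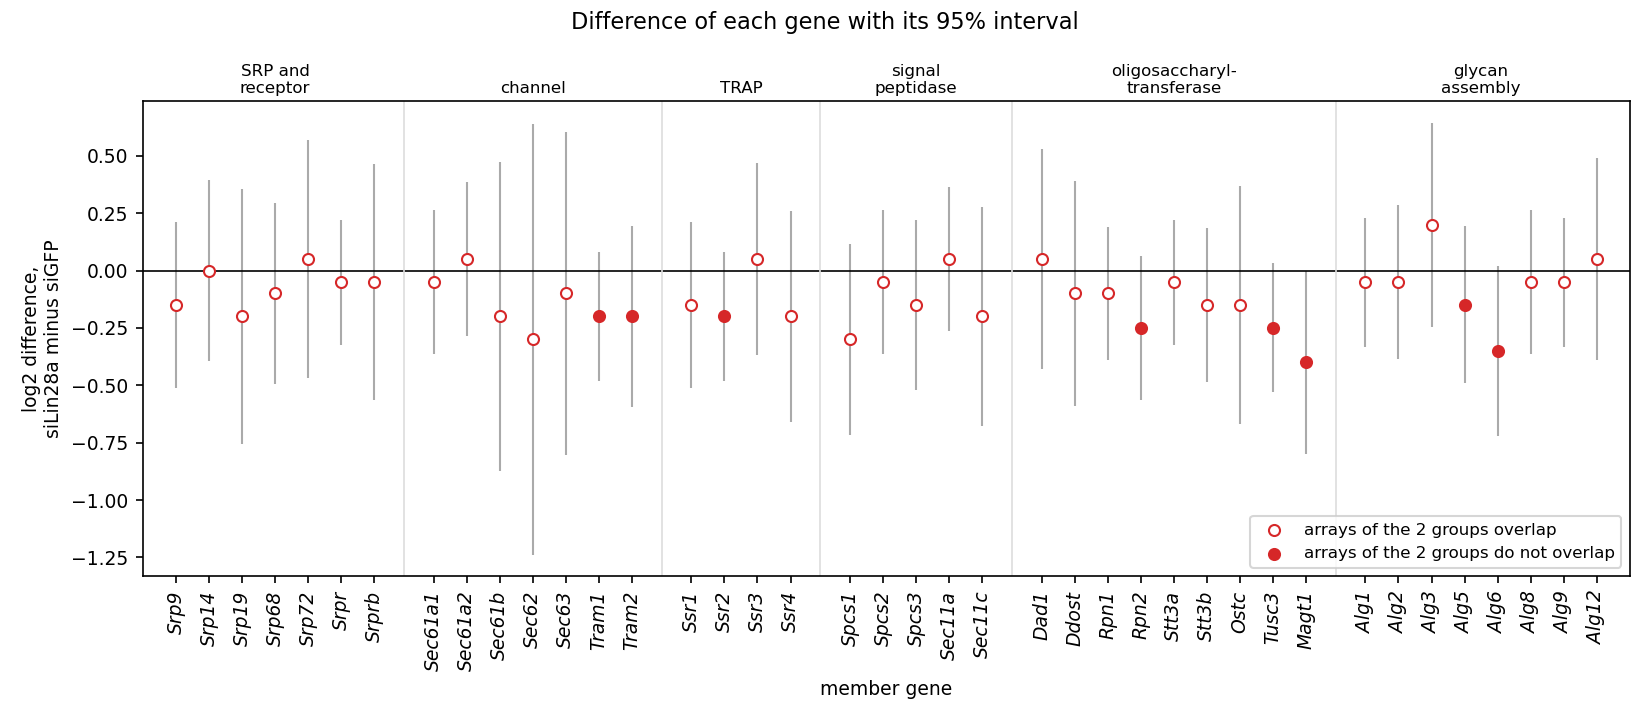
Log2 difference of each of the 40 genes between siLin28a and siGFP, by role, with 95% intervals from limma. Of the 40 points 32 lie below 0, and of the intervals only that of Magt1 ends short of 0, at −5.8e-05.

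Of SRP and its receptor, 5 of 7 genes were lower with siLin28a than with siGFP, 1 equal and 1 higher, with a median of −0.05. After quantile normalization and after cyclic loess 3 were lower and 4 higher, with a median of 0.03. Srp14, which with Srp9 forms the domain that slows the ribosome, read 9.4 and 9.4 in untreated cells, 8.9 and 9.2 with siGFP, and 8.9 and 9.2 with siLin28a. Both siRNA groups lay below the untreated arrays without overlap, and their readings were equal to each other. The log2 difference from untreated was −0.35 in each (SE 0.16, n = 2; limma adjusted p = 0.961 for siGFP and 0.776 for siLin28a). It was −0.20 without replicate 1 of either siRNA group. Srp19, which helps assemble SRP on its RNA, read 8.2 and 7.8, then 7.6 and 7.9, then 7.3 and 7.8, in the order untreated, siGFP and siLin28a. Its groups overlapped, and siLin28a minus untreated was −0.45 (SE 0.23; limma adjusted p = 0.783), moving to −0.70 and −0.20 without siLin28a replicate 2 and 1, and to −0.25 without untreated replicate 1.

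Srp72, an SRP protein that pairs with Srp68, had a higher mean than untreated in both siRNA groups. It read 9.7 and 9.2 untreated, 9.9 and 9.5 with siGFP, and 9.7 and 9.8 with siLin28a, so the groups overlapped. The differences from untreated were 0.25 for siGFP and 0.30 for siLin28a (SE 0.21, adjusted p by limma 0.961 and 0.861). When 1 array was left out the siGFP difference lay between 0 and 0.50 and the siLin28a difference between 0.05 and 0.55, in each case the lower without untreated replicate 2 and the higher without untreated replicate 1. Srp68 read 9.8 and 9.8, 9.6 and 9.9, and 9.5 and 9.8, and Srp9 read 9.9 and 9.9, 9.8 and 10, and 9.6 and 9.9. In both of these genes the lowest array was siLin28a replicate 1. Of the receptor subunits, Srpr stayed between 10.1 and 10.3 on all arrays and Srprb between 8.0 and 8.4.

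The channel group had 6 of 7 genes lower with siLin28a than with siGFP and a median of −0.20 (5 of 7 lower, and −0.125 and −0.12, after quantile normalization and cyclic loess). Sec62, Sec63 and Sec61b had the largest standard errors of the 40 genes. Sec62, a channel partner used by short secretory precursors, read 7.1 and 6.3 in untreated cells, 6.5 and 7.0 with siGFP, and 6.0 and 6.9 with siLin28a. The groups overlapped, and siLin28a minus siGFP was −0.30 (SE 0.39; limma adjusted p = 0.953). Without siLin28a replicate 1 it was 0.15 and without siLin28a replicate 2 −0.75, and without siGFP replicates 1 and 2 it was −0.55 and −0.05. Sec63, which brings the chaperone BiP to the channel, read 7.7 and 6.8, 7.6 and 7.4, and 7.3 and 7.5. Its siGFP minus untreated difference was 0.25 (SE 0.29; limma adjusted p = 0.961) and was 0.70 and −0.20 without untreated replicate 1 and 2, and 0.15 without siGFP replicate 1.

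Sec61b, the small tail-anchored beta subunit of the channel, read 7.5 and 8.2 untreated, 7.5 and 7.9 with siGFP, and 7.3 and 7.7 with siLin28a. Replicate 2 was the higher array in every group. Its siLin28a minus untreated difference was −0.35 (SE 0.28; limma adjusted p = 0.861), −0.70 and 0 without untreated replicate 1 and 2, and −0.15 and −0.55 without siLin28a replicate 1 and 2. Sec61b has 3 rows, and against siGFP they gave −0.20, −0.20 and −0.15. Tram1, a membrane protein that lies beside the channel and aids insertion of signal sequences, was steadier. It read 10.2 and 10.2, 10.2 and 10.3, and 10 and 10.1, so both siLin28a arrays were the lowest of the 6, at −0.20 from siGFP. Its paralogue Tram2 read 6.0 and 6.4 untreated, 6.3 and 6.2 with siGFP and 6.1 and 6.0 with siLin28a, with siLin28a below siGFP but not below untreated. Sec61a2, the other alpha subunit gene, stayed between 8.3 and 8.5.

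TRAP had 3 of 4 genes lower with siLin28a than with siGFP (median −0.175; −0.09 after quantile normalization and after cyclic loess). Against untreated 4 of 4 were lower, but 2 of 4 after quantile normalization and 3 of 4 after cyclic loess. Ssr2, the beta subunit, read 11.2 and 11.2, 11.2 and 11.3, and 11 and 11.1 in the order untreated, siGFP and siLin28a. Both siLin28a arrays lay below the other 4, at −0.20 from siGFP. Ssr1, the alpha subunit, read 9.7 and 9.7, 9.7 and 9.9, and 9.5 and 9.8, and Ssr4, the delta subunit, 7.8 and 8.0, 7.7 and 8.2, and 7.7 and 7.8. Ssr3, the gamma subunit, read 10 and 10.3, 9.9 and 10.1, and 9.9 and 10.2, and its siLin28a arrays were 0.05 above siGFP on average. Apart from Ssr2, the groups overlapped.

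Signal peptidase had 4 of 5 genes lower with siLin28a than with siGFP, with a median of −0.15 (3 of 5, with −0.09 and −0.06, after quantile normalization and cyclic loess). Against untreated 5 of 5 were lower, and 3 of 5 after each of these scalings. Spcs1, a small accessory subunit, read 9.1 and 9.3 in untreated cells, 9.0 and 9.3 with siGFP, and 8.7 and 9.0 with siLin28a. The siLin28a arrays lay below the untreated ones, while the higher siLin28a array equalled the lower siGFP array. The difference was −0.30 from siGFP and −0.35 from untreated (SE 0.17; limma adjusted p = 0.953 and 0.783). Without siLin28a replicate 1 these were −0.15 and −0.20, and without siGFP replicate 2 the difference from siGFP was −0.15. The catalytic subunit Sec11a read 9.2 to 9.4 on all arrays, and its paralogue Sec11c read 6.6 and 6.5, 6.4 and 6.8, and 6.2 and 6.6. Spcs2 stayed between 10.1 and 10.3 and Spcs3 between 9.2 and 9.6, and all 4 of these genes overlapped between siLin28a and siGFP.

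OST had 8 of 9 genes lower with siLin28a than with siGFP, a median of −0.15 (−0.08 after quantile normalization and −0.06 after cyclic loess, with 7 of 9 lower in each), and 3 genes without overlap: Magt1, Tusc3 and Rpn2. Of all genes 12.0% lay below siGFP without overlap, and 15.4% to 16.8% at means of 6 and over. Against untreated cells 7 were lower, 2 equal and 0 higher. After quantile normalization 5 were lower and 4 higher, and after cyclic loess 7 were lower and 2 higher. Magt1 and Tusc3 are the alternative oxidoreductase subunits of the OST form that contains Stt3b, where they help sites near cysteines to be glycosylated. Magt1 had the largest difference from siGFP of all 40 genes. It read 8.4 and 8.1 in untreated cells, 8.4 and 8.5 with siGFP, and 7.9 and 8.2 with siLin28a, so siLin28a lay below siGFP and overlapped with untreated.

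The log2 difference of Magt1 was −0.40 from siGFP (SE 0.16, 95% interval −0.80 to −5.8e-05; limma adjusted p = 0.953), 1.32-fold lower, and −0.20 from untreated (adjusted p = 0.861). Without siLin28a replicate 1 the difference from siGFP was −0.25, and the difference from untreated lay between −0.35 and −0.05 when 1 untreated or siLin28a array was left out. Tusc3 read 7.5 and 7.4, 7.4 and 7.5, and 7.2 and 7.2, with both siLin28a arrays the lowest of the 6. Its difference was −0.25 from each of the other groups. The difference from siGFP stayed between −0.30 and −0.20 when any one siGFP or siLin28a array was left out. Stt3b itself, a catalytic subunit, read 9.6 and 9.8, 9.6 and 9.7, and 9.4 and 9.6, with overlapping groups and −0.15 from siGFP.

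Rpn2, a non-catalytic OST subunit, read 9.9 and 10, 10 and 10.2, and 9.8 and 9.9, and was −0.25 from siGFP with no overlap (−0.15 without siGFP replicate 2). It overlapped with untreated at −0.10. Its partner Rpn1 read 9.5 to 9.7 on all arrays. Dad1, a small OST subunit named for cell death on its loss, was the one OST gene above siGFP, by 0.05. It read 10.2 and 10.5 untreated, 9.9 and 10.3 with siGFP, and 10 and 10.3 with siLin28a, with overlapping groups. Its siGFP minus untreated difference was −0.25 (SE 0.20; limma adjusted p = 0.961), ranging from −0.45 without siGFP replicate 2 to −0.05 without siGFP replicate 1, with −0.40 and −0.10 without untreated replicate 1 and 2. Ddost read 10 and 10.2, 9.9 and 10.3, and 9.8 and 10.2, and Ostc 9.6 and 9.7, 9.3 and 9.8, and 9.2 and 9.6.

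The enzymes that build the lipid-linked glycan differed in sign between comparisons. With siLin28a 6 of 8 were below siGFP (median −0.05), but the median was 0.02 after quantile normalization and 0.01 after cyclic loess, with 2 of 8 lower in each. Against untreated cells 6 of 8 were higher with siGFP (median 0.125) and 5 of 8 higher with siLin28a (median 0.075), and these medians stayed above 0 under the other scalings. Alg6, which adds the first glucose to the glycan, read 6.9 and 6.8 untreated, 6.8 and 7.0 with siGFP, and 6.4 and 6.7 with siLin28a. Both siLin28a arrays were the lowest of the 6. Its difference was −0.35 from siGFP and −0.30 from untreated (SE 0.15; limma adjusted p = 0.953 and 0.783), and −0.20 and −0.15 without siLin28a replicate 1.

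Alg12, a mannosyltransferase of the ER lumen and the one listed gene with an ERSE match in its window, had a higher mean in both siRNA groups than in untreated cells. It read 6.0 and 6.3 in untreated cells, 6.7 and 6.3 with siGFP, and 6.6 and 6.5 with siLin28a. The siLin28a arrays lay above the untreated ones without overlap, and siGFP replicate 2 equalled untreated replicate 2. The differences from untreated were 0.35 for siGFP and 0.40 for siLin28a (SE 0.18; limma adjusted p = 0.961 and 0.776), and siLin28a and siGFP differed by 0.05. The siGFP difference was 0.15 and 0.55 without siGFP replicate 1 and 2, and without untreated replicate 1 the siGFP and siLin28a differences were 0.20 and 0.25. Creld2, whose promoter window overlaps that of Alg12, read 8.6 and 8.7, 8.7 and 9.0, and 8.5 and 8.7, which is 0.20 above untreated for siGFP and −0.05 for siLin28a (SE 0.15).

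The other 6 glycan enzymes had smaller differences, none above 0.20 in size. Alg1, which adds the first mannose, read 7.1 and 7.2 untreated, 7.3 and 7.4 with siGFP, and 7.3 and 7.3 with siLin28a, so both siRNA groups lay above untreated without overlap, at 0.20 and 0.15. Alg2, the next mannosyltransferase, read 7.1 and 7.1, 7.2 and 7.2, and 7.0 and 7.3. Alg3, a mannosyltransferase of the ER lumen, read 8.8 and 9.1, 9.0 and 8.7, and 9.2 and 8.9, and its 0.20 above siGFP was the highest siLin28a minus siGFP difference in the list, with overlapping groups and values of 0.05 to 0.35 when 1 array of either group was left out. Alg5, which makes the glucose donor dolichyl-phosphate-glucose, read 7.1 and 6.8, 7.1 and 7.1, and 7.0 and 6.9. Alg8, the glucosyltransferase after Alg6, stayed between 6.9 and 7.2, and Alg9 between 8.0 and 8.2.

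A wider list of 65 genes of the same pathway was examined, of which 58 had a row of their own. With siLin28a, 42 of the 58 were lower than with siGFP, 6 equal and 10 higher (median −0.10), and 12 had both siLin28a arrays below both siGFP arrays (20.7%). Over all genes 49.2% were lower and 12.0% lay below without overlap. By level, 37.8% of all genes were lower below a mean of 6, 59.0% at 6 to 8, 68.8% at 8 to 10 and 74.3% at 10 and over. At means of 6 and over, 15.4% to 16.8% lay below without overlap. None had an adjusted p below 0.05 by limma, and 1 had an unadjusted p below 0.05, against 4.05% of all rows (2.38% of all genes lower, 1.78% higher). After quantile normalization the split was 33 lower and 24 higher, and after cyclic loess 33 and 25. Emc7, a subunit of the ER membrane protein complex that inserts membrane proteins, was the gene with the unadjusted call, at −0.35 (SE 0.12; limma adjusted p = 0.953). Its arrays read 7.7 and 7.8 untreated, 7.8 and 7.8 with siGFP, and 7.4 and 7.5 with siLin28a. Emc2 of the same complex had the largest difference, −0.55 (SE 0.27), with untreated arrays as far apart as 10.2 and 9.4.

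By group of this wider list, 17 of 23 genes of dolichol and glycan-precursor synthesis were lower with siLin28a than with siGFP (median −0.15), and so were 7 of 8 glycan-trimming genes (median −0.125) and 16 of 23 membrane-insertion genes (median −0.05). Of 4 further OST and SRP genes 2 were lower and 2 higher, with Tmem258 at −0.20 and Ost4 at 0.25, both OST subunits. Gnpnat1, which acts in making UDP-GlcNAc, was −0.35 from siGFP and −0.45 from untreated (limma adjusted p = 0.953 and 0.705). Against untreated cells siLin28a gave 34 lower, 11 equal and 13 higher. That is 58.6% lower, against 46.6% of all genes and 53.3% to 66.3% at means of 6 and over. The median turned from −0.05 to 0.02 after quantile normalization and after cyclic loess. Here 6 genes had an unadjusted p below 0.05 by limma, with Tmem258, Alg10b, Alg11, Gnpnat1 and Emc7 lower and Uggt2 higher, against 6.44% of all rows. With siGFP against untreated 17 were lower, 9 equal and 32 higher (median 0.05), and 1, Uggt2, had an unadjusted p below 0.05 by limma, against 3.52% of all rows. Uggt2, a relative of the folding sensor of the glycan cycle, read 3.5 and 3.5 untreated, 3.9 and 3.9 with siGFP, and 3.7 and 3.9 with siLin28a, levels within the range of the fibroblast and endoderm markers.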

How the data were processed

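The 6 arrays form the data, 2 for each of 3 groups, grouped by their titles. Per the submitters' processing notes, the authors used RMA in Affymetrix Expression Console, a method with background correction, quantile normalization and a summary per probe set. The deposited numbers are taken to be log2 levels, since RMA writes that scale, and lie in steps of 0.1. For tool versions, library files and the build, nothing is stated: not given in the sources used here. Of 35556 rows, 21789 carried 1 gene symbol, 1621 several and 12146 none, by the array platform's annotation. The 23410 named rows were fitted in R 4.3.3 by limma 3.58.1 through lmFit, contrasts.fit and eBayes, with all 6 arrays in 3 groups and no replicate block. This left 3 residual degrees of freedom, to which the prior added 3.191. Tests were two-sided, with Benjamini-Hochberg adjustment over all 23410 rows, a threshold of 0.05 and 95% intervals. An exact permutation test of 2 against 2 arrays cannot go below 0.333, so none is given. No filter on low values was set, so all 40 genes were tested. Precision is limited by the number of arrays and by the steps of 0.1.

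Members, roles and lists were chosen with earlier results of these data known, and they are described by counts and medians beside all genes. Every listed gene may be named. Genes were described with full statistics where they had 1 of the 4 largest differences of a comparison (ties included) or a difference of at least 0.3 without overlap, and others with values. Symbols of all 40 genes matched RefSeq by Entrez number. Promoter windows and their motifs were read from RefSeq sequences of GRCm38.p6. Alternatives were a further quantile normalization, a shift to the same median, cyclic loess, a filter at a mean of 6, a robust or trended prior, least squares, the replicate block and leaving out each array. The fit was checked on simulated data with planted changes larger than any difference among the 40 genes, so changes of their size were not covered.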

Additional observations from a re-analysis of the deposited data

How the results depend on the processing

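Between siLin28a and siGFP, the median difference of the 40 genes kept its sign after further quantile normalization, the median shift and cyclic loess. The median did not keep it when arrays were left out. It ranged from −0.225 without siLin28a replicate 2 to 0 without siLin28a replicate 1. For siGFP against untreated it ranged from −0.05 to 0.10, and for siLin28a against untreated from −0.20 to −0.05. Rows called at an adjusted p below 0.05 were 0 in each comparison. With a robust prior they were 1 for siLin28a against siGFP and 7 for siLin28a against untreated, and with cyclic loess 1 and 5, and the cause was not tested. Of 1320 alternative values of single members, 1247 moved by less than the spread between replicates and 73 by more. Some of these values could not move. Leaving out an array of the third group does not change a comparison, and a filter, prior or replicate block cannot change a difference. The counts therefore do not show how firm the differences are. When 1 array was left out, 17 of the 40 genes turned sign between siLin28a and siGFP. For siGFP against untreated 15 did, and for siLin28a against untreated 11. Equal replicate numbers were not shown to pair the arrays: the deviations of same-numbered arrays correlated across rows at 0.154 for untreated and siGFP, −0.04 for untreated and siLin28a and 0.357 for siGFP and siLin28a, and over the 40 genes at 0.116, −0.28 and 0.699. The mean over the 40 genes was 8.70 with siGFP and 8.56 with siLin28a on the arrays numbered 1, and 8.83 and 8.75 on those numbered 2. With the replicate number as a block, the medians were −0.10, 0.05 and −0.125 for siLin28a against siGFP, siGFP against untreated and siLin28a against untreated, with 0 rows called in each. Each group holds 1 array of each number, so the block cannot change a difference and is no check on these medians. With 2 arrays a group and values in steps of 0.1, the standard error of a single gene's difference was 0.11 to 0.39.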
